A study of Mus musculus with 28 samples.

Results

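Ugt1a1, Ugt1a2 and Ugt1a10 are UDP-glucuronosyltransferase genes of 1 locus on mouse chromosome 1. They were taken by symbol from the normalized expression table of a kidney RNA-seq study, and are 3 of the 14845 genes it holds and 3 of the 8 Ugt1a genes in it. The choice was made with their difference between diabetic and control kidneys already known. Their levels in those comparisons are therefore described without a test, and tests are given only for comparisons that played no part in the choice.

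The study measured bulk RNA from kidneys of male mice in 28 libraries. Control mice were db/m with both kidneys in place, 5 libraries at 26 weeks of age and 6 at 35 weeks. The diseased mice were db/db and had lost 1 kidney by surgery (uninephrectomy, Unx), 12 libraries at 26 weeks and 5 at 35 weeks. A db/db mouse has no working leptin receptor of the signalling form and becomes obese and diabetic, and with the surgery it serves as a model of advanced diabetic kidney damage. Every db/db mouse was uninephrectomized and every db/m mouse was intact, so the genotype and the surgery cannot be told apart. Nothing in the labels says that the libraries come from separate animals; this is assumed, and p-values otherwise measure technical spread alone. The labels name no batch, and they give no inbred background for the mice. In bulk tissue, a change in the number of cells of a type and a change in RNA per cell cannot be told apart.

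UDP-glucuronosyltransferases sit in the membrane of the endoplasmic reticulum and join glucuronic acid, taken from UDP-glucuronate, to bilirubin, steroids, bile acids, drugs and other small molecules, which are then excreted in bile or urine. The Ugt1a locus is a row of alternative first exons, each with a promoter of its own, spliced to 1 common set of last exons. The first exon encodes the part of the enzyme that binds the substrate, and the common exons encode the part that binds UDP-glucuronate together with the membrane anchor. UGT1A1 is the enzyme that conjugates bilirubin, and its loss in humans causes Crigler-Najjar syndrome. In the kidney, glucuronidation takes place mainly in the proximal tubule.

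In the GENCODE M21 annotation of GRCm38, all members lie on the plus strand. Ugt1a10 (ENSMUSG00000090165) spans chr1:88055388-88219004, Ugt1a2 (ENSMUSG00000090171) spans chr1:88200601-88218997 and Ugt1a1 (ENSMUSG00000089960) spans chr1:88211959-88218997. Each model used here has 5 exons, and the exons that start at 88215044, 88215795, 88216138 and 88218127 are common to the 9 annotated Ugt1a genes. The common exons hold 735 coding bases, which is 45.8% of the coding sequence of Ugt1a1, 46.0% of that of Ugt1a2 and 46.2% of that of Ugt1a10. The splice junctions below show where a read can be assigned and where it cannot. Lower case marks the last 30 bases of the first exon and capitals mark the first 30 bases of the common exon (GRCm38, chr1:88215044-88215073), read from the annotated transcripts. The first-exon parts come from chr1:88056307-88056336 for Ugt1a10, chr1:88201471-88201500 for Ugt1a2, chr1:88166874-88166903 for Ugt1a5, chr1:88095949-88095978 for Ugt1a7c and chr1:88212842-88212871 for Ugt1a1.
Ugt1a10: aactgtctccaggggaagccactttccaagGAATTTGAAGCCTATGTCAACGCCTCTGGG
Ugt1a2: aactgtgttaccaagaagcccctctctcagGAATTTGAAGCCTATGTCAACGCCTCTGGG
Ugt1a5: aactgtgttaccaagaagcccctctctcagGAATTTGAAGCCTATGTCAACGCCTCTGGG
Ugt1a1: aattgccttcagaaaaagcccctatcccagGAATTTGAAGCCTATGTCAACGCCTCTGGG
Ugt1a7c: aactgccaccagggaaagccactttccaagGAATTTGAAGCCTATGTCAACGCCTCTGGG

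The capital part was the same in 9 of 9 genes. A read inside the stretch of the common exons that all models hold fits every gene of the locus. Only reads that touch a first exon tell the members apart. Past the start of the common exons, Ugt1a6a has 1920 exonic bases of its own. Ugt1a5 is shown because its first exon ends in the same 30 bases as that of Ugt1a2. Ugt1a7c is shown because it carried most of the signal of the locus in control kidneys. The coding parts of the first exons were 55.4% identical between Ugt1a1 and Ugt1a2, 52.3% between Ugt1a2 and Ugt1a10 and 52.5% between Ugt1a1 and Ugt1a10. No stretch of 50 bases was shared between the first exons of any of these pairs. The closest relatives of the members were outside the trio. Ugt1a5 was 81.4% identical to Ugt1a2, and 8.22% of the 50-base stretches of Ugt1a2 were found in Ugt1a5. Ugt1a9 was 91.2% identical to Ugt1a10, and 6.375% of the 50-base stretches of Ugt1a9 were found in Ugt1a10. The 3′ ends of the models differ. Of the 9 models only that of Ugt1a7c runs on to base 88220002, and it alone holds 998 exonic bases beyond the shared sequence there, while RefSeq ends Ugt1a1, Ugt1a2 and Ugt1a10 at 88220002 as well. The annotation with which the deposited values were made is not given in the sources used here, so how far the value of one Ugt1a gene holds reads of another was not tested.

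**Figure D1:**
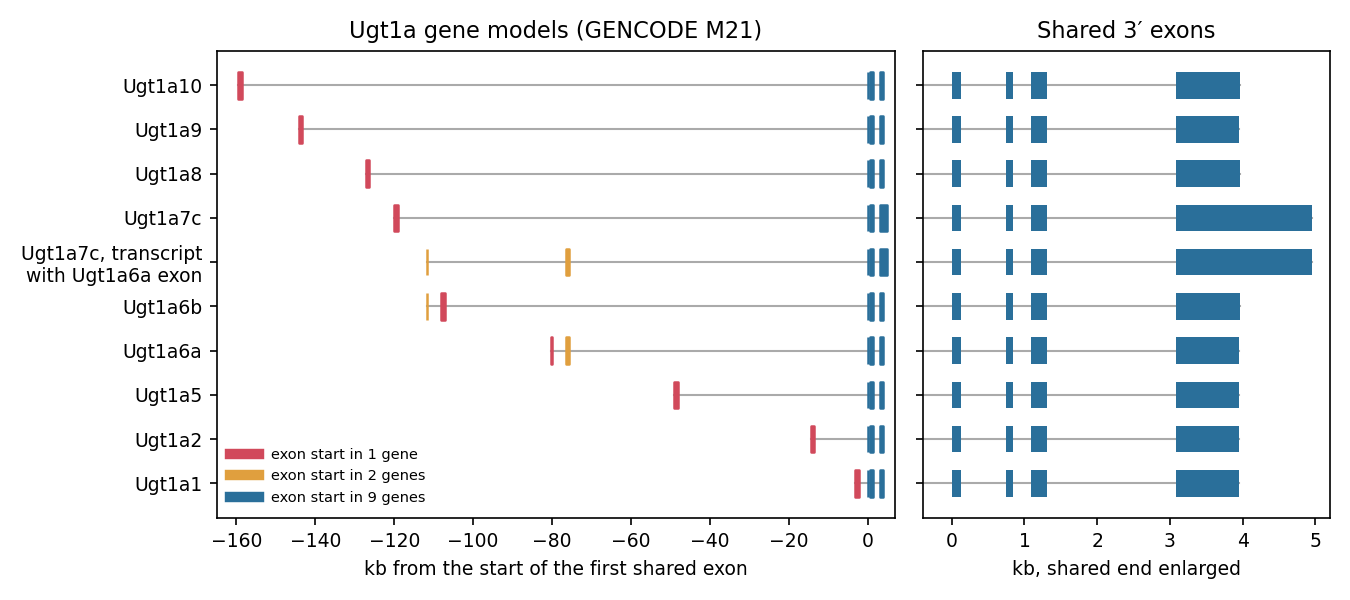
Exon models of the 9 annotated Ugt1a genes and of 1 further Ugt1a7c transcript, with the distance in kb from the start of the first common exon on the x axis and 1 line per model. Exons whose start is found in 1 gene are red, in 2 genes orange and in 9 genes blue. The blue 3′ exons, enlarged on the right, are in every model, and the last exon of Ugt1a7c is the longest.

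Values are the deposited normalized values. Most low values lay near whole multiples of 1 step per library, and taking that step as 1 read, the libraries held 21.8 to 30.8 M estimated reads, and 1 read was worth 0.0295 to 0.0447. On the second principal component of all 13495 tested genes, which held 9.17% of the variance, db/db Unx replicates 3, 5 and 6 of 35 weeks lay at -42.8, -26.7 and -20.1, while all libraries of the other groups lay at or above -9.21. For the main results that use the 35-week db/db Unx group, values without these 3 libraries, which leaves replicates 1 and 2, are given as well. Log2 changes are differences of mean log2(value + 1) with standard errors (SE) from a limma fit over the 4 groups, and understate the change of genes at low values. Called genes are those with an adjusted p below 0.05 (Benjamini-Hochberg over 13495 genes).

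Ugt1a2 was close to 0 in control kidneys and was the member whose value differed most between the groups. In db/m kidneys of 26 weeks it measured 0.129, 2.18, 1.95, 0 and 2.68 in replicates 1 to 5. Replicate 4, listed at 0, had a limit of 0.126, the value of 3 reads. In the 12 db/db Unx kidneys of 26 weeks the lowest value was 64.3, the median 256 and the highest 554. The groups lay far apart, and the lowest diabetic library was well above the highest control. The means were 1.39 ± 1.24 (SD, n = 5) and 269 ± 162 (SD, n = 12), a log2 change of 6.75 (SE 0.41). In db/m kidneys of 35 weeks, replicates 1 to 6 had 1.06, 1.75, 2.75, 3.43, 3.26 and 3.06. The db/db Unx kidneys of 35 weeks had 433, 462, 526, 729 and 792 in replicates 1, 2, 3, 5 and 6. Again no value of one group came near the other. The means were 2.55 ± 0.944 (SD, n = 6) and 588 ± 162 (SD, n = 5), a log2 change of 7.38 (SE 0.47), and 7.03 without replicates 3, 5 and 6. With 1 added before the logarithm, Ugt1a2 had the largest log2 change upward of all 13495 genes at both ages. This rank was not recomputed with other constants. In estimated reads, the control libraries held between 0 and 96.5 and the diabetic libraries between 1709.8 and 24733.

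Ugt1a10, whose human counterpart is known as an extrahepatic enzyme of the gut, had the narrowest relative spread of the members in db/db Unx kidneys, with a coefficient of variation of 19.6% at 26 weeks and 8.56% at 35 weeks. The db/m kidneys of 26 weeks measured 7.29, 7.43, 7.37, 7.39 and 8.02. In db/db Unx kidneys of that age it ranged from 154 through a median of 200.01 to 282. The control libraries were almost level and every diabetic library was many times higher. Means were 7.50 ± 0.295 (SD, n = 5) and 211 ± 41.3 (SD, n = 12), a log2 change of 4.62 (SE 0.16). At 35 weeks the 6 db/m libraries had 13.4, 9.38, 5.62, 11.2, 14.3 and 5.86, a wider scatter than at 26 weeks. The 5 db/db Unx libraries had 255, 248, 222, 266 and 281. These groups did not overlap either. Means were 9.95 ± 3.69 (SD, n = 6) and 254 ± 21.8 (SD, n = 5), a log2 change of 4.61 (SE 0.18), and 4.60 without the libraries that stood apart.

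Ugt1a1, the bilirubin-conjugating enzyme, was the member with the lowest level per length in diabetic kidneys. Values in db/m kidneys of 26 weeks were 0.557, 1.76, 0.929, 0 and 0.130. The db/db Unx kidneys of 26 weeks ranged from 13.8 through a median of 35.2 to 55.8. Controls held at most 40.6 estimated reads, and no diabetic library held fewer than 363. The means were 0.675 ± 0.708 (SD, n = 5) and 32.6 ± 13.7 (SD, n = 12), a log2 change of 4.30 (SE 0.31). In db/m kidneys of 35 weeks the values were 0.285, 2.77, 0.911, 1.04, 2.60 and 0.628. The db/db Unx kidneys of 35 weeks had 47.3, 46.4, 47.9, 61.8 and 47.9, with replicate 5 above 4 closely grouped libraries. Means were 1.37 ± 1.05 (SD, n = 6) and 50.2 ± 6.47 (SD, n = 5), a log2 change of 4.54 (SE 0.35), and 4.45 without the libraries that stood apart.

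All 3 members thus lay higher in every db/db Unx library than in every db/m library at both ages. Over all tested genes this held for 5.11% at 26 weeks and 7.84% at 35 weeks, and 34.9% and 32.3% of genes were called in either direction at the same ages. The members were chosen on this contrast, so nothing is read from these shares. The size of the log2 change of the members depends on the constant added before the logarithm, because the control values are near 0. With 5 added in place of 1 the change of Ugt1a1 at 26 weeks was 2.64, and with 0.1 added that of Ugt1a2 was 8.15.

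**Figure D2:**
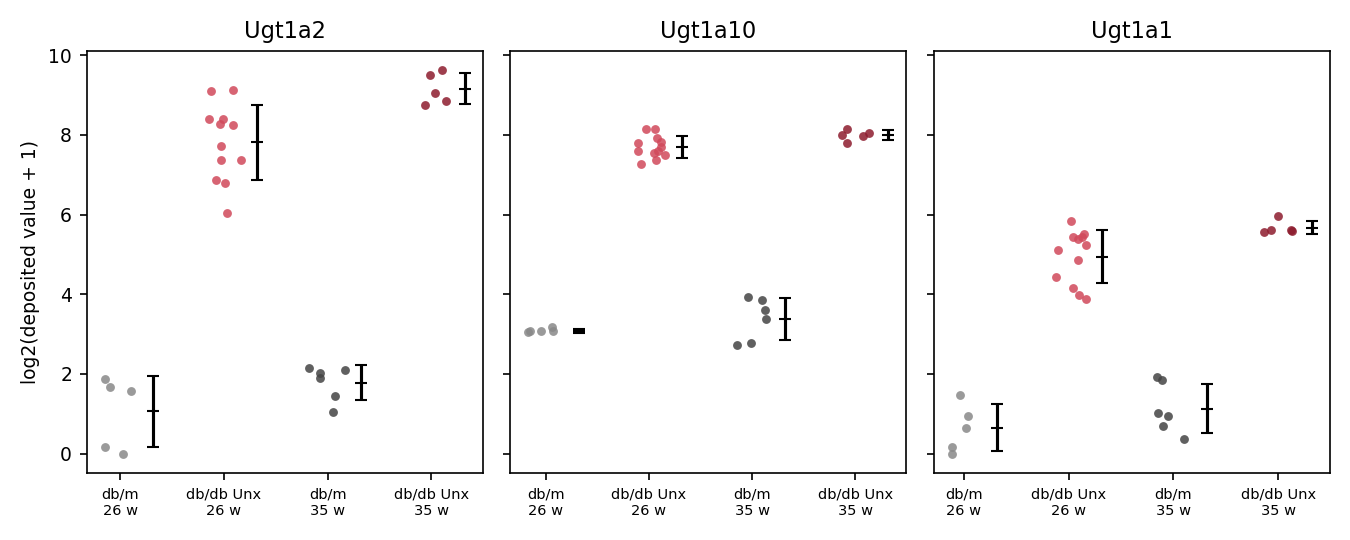
Values of Ugt1a2, Ugt1a10 and Ugt1a1 in each library, as log2(deposited value + 1) on the y axis, for the 4 groups on the x axis, w standing for weeks. Each point is 1 library, and the bar beside each group is the mean with its SD on the log2 scale. The db/m points lie below all db/db Unx points in each panel, and the spread of Ugt1a2 at 26 weeks is the widest among the db/db Unx groups.

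Because the genes share their last exons, the split of reads among them may depend on the counting method. The sum over the whole locus does not depend on that split where such reads were divided among the genes and not discarded, while the sum of the members can still exchange reads with the other genes. At 26 weeks the sum of the 3 members was 9.56 ± 1.77 in controls and 512 ± 151 in diabetic kidneys (SD, n = 5 and 12). At 35 weeks it was 13.9 ± 4.08 and 893 ± 181 (SD, n = 6 and 5). The log2 changes of this sum were 5.56 (SE 0.20) and 5.93 (SE 0.22), the second being 5.70 without the libraries that stood apart. The sum over all 8 Ugt1a genes in the table differed far less in proportion. At 26 weeks it ran from 791 to 891 in controls and from 1035 to 1556 in diabetic kidneys, and from 817 to 940 and from 1414 to 1828 at 35 weeks. The groups did not overlap at either age. The ratio of the group means of the sum over the locus was 1.50 at 26 weeks and 1.79 at 35 weeks, and its log2 changes were 0.58 (SE 0.08) and 0.83 (SE 0.09), the second being 0.73 without the libraries that stood apart. At 26 weeks the mean of the members' sum was higher by 502 in db/db Unx, and that of the locus sum by 417.

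The makeup of the locus signal differed between the groups. At 26 weeks the members held 1.15% ± 0.223 of the locus sum in controls and 40.4% ± 6.99 in diabetic kidneys (SD, n = 5 and 12), and 1.56% ± 0.447 and 55.9% ± 5.09 at 35 weeks (SD, n = 6 and 5). Ugt1a2 alone went from 0.168% to 20.5% at 26 weeks and from 0.289% to 36.6% at 35 weeks. Ugt1a10 went from 0.905% to 17.3% and from 1.12% to 16.1%. Ugt1a1 went from 0.0812% to 2.55% and from 0.151% to 3.18%. Ugt1a7c held 96.4% and 96.1% in db/m, and 56.5% and 41.9% in db/db Unx. In 35-week replicates 1 and 2, which did not stand apart, the members together held 51.0% and 50.4%, Ugt1a2 30.05% and 30.8%, and Ugt1a7c 46.5% and 47.3%.

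**Figure D3:**
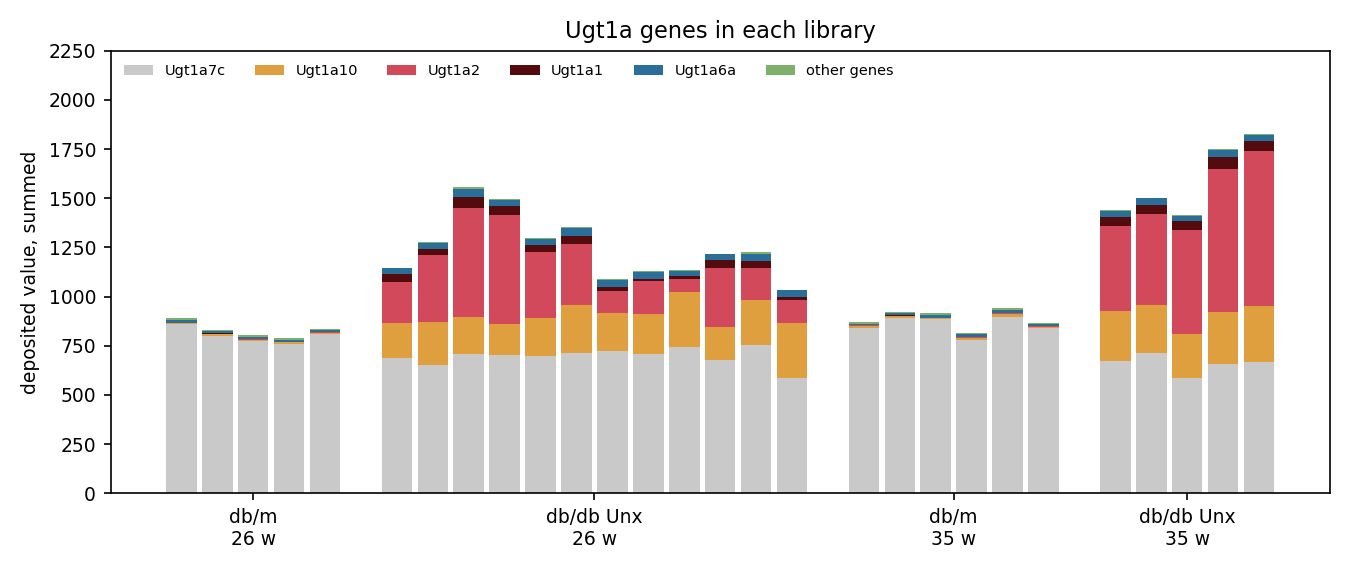
Deposited values of the Ugt1a genes stacked for each of the 28 libraries, 1 bar per library, with the summed value on the y axis and the 4 groups on the x axis. Ugt1a5, Ugt1a6b and Ugt1a9 are joined as other genes. The grey part, Ugt1a7c, makes up nearly the whole bar in db/m, while Ugt1a10 and Ugt1a2 add to it in every db/db Unx library.

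The other genes of the locus did not move together. Ugt1a6a, a phenol-conjugating isoform, rose from 11.04 ± 1.14 to 32.3 ± 4.20 at 26 weeks (log2 change 1.46, SE 0.11, limma adjusted p 1.19e-13) and from 12.1 ± 2.58 to 30.7 ± 3.45 at 35 weeks (1.30, SE 0.12, adjusted p 8.67e-11). Ugt1a6b, whose first coding exon is 97.0% identical to that of Ugt1a6a, fell, with changes of -0.91 (adjusted p 0.00197) and -1.40 (6.97e-05). These first exons are close enough that the division of reads between them is uncertain. The first coding exon of Ugt1a6a is also annotated in a transcript of Ugt1a7c. So 100% of the coding bases of Ugt1a6a are shared with another gene, and the division of reads with Ugt1a7c is uncertain too. At 26 weeks Ugt1a7c had 800.5 ± 38.2 in controls and 696 ± 44.4 in diabetic kidneys (-0.20, SE 0.05, adjusted p 0.000921), and 855 ± 45.8 and 658 ± 44.4 at 35 weeks (-0.38, SE 0.05, adjusted p 7.71e-07). The fall at 26 weeks was not called after quantile normalization (-0.01, adjusted p 0.909) or after scaling the libraries to the same sum (-0.11, adjusted p 0.0602). Without the libraries that stood apart, the changes at 35 weeks were 1.37 for Ugt1a6a, -1.52 for Ugt1a6b and -0.31 for Ugt1a7c, all called. Ugt1a9, close in sequence to Ugt1a10, ran from 0 to 0.156 in db/m and from 0.364 to 4.14 in db/db Unx at 26 weeks, and from 0 to 0.454 and from 0.46597 to 3.90 at 35 weeks. All db/db Unx libraries lay above all db/m libraries at either age, as for 5.11% and 7.84% of all tested genes. The log2 changes of Ugt1a9 were 1.21 and 1.37, the second being 0.68 without the libraries that stood apart. Ugt1a9 reached 1 in 0 of 11 db/m libraries. It passed the filter only through the group in which it is high, so its changes are given without a test. Ugt1a5 reached at most 1.10 and was too low to enter the test.

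Levels of different genes can be compared per length. Per kb of the longest annotated coding transcript, in db/m of 26 weeks Ugt1a7c had 242, Ugt1a10 3.34, Ugt1a2 0.628 and Ugt1a1 0.303. In db/db Unx of 26 weeks the order was Ugt1a7c with 211, Ugt1a2 with 121, Ugt1a10 with 93.9 and Ugt1a1 with 14.7. In db/db Unx of 35 weeks Ugt1a2 had 266, Ugt1a7c 199, Ugt1a10 113 and Ugt1a1 22.6. The order of Ugt1a2 and Ugt1a7c at 35 weeks was not stable. In replicates 1 and 2, which did not stand apart, Ugt1a2 had 196 and 209 per kb and Ugt1a7c 203 and 215. Within single libraries, Ugt1a2 per kb exceeded Ugt1a10 in 0 of 5 and 0 of 6 db/m libraries, in 7 of 12 db/db Unx libraries of 26 weeks and in 5 of 5 of 35 weeks. The neighbours Ugt1a2 and Ugt1a10 thus changed places from library to library at 26 weeks. Ugt1a7c exceeded Ugt1a2 in 10 of 12 diabetic libraries at 26 weeks and in 2 of 5 at 35 weeks, so these also lay within each other's spread. Ugt1a1 was below Ugt1a10 in every library of the 4 groups. With the mean length of the coding transcripts in place of the longest, Ugt1a10 in db/db Unx of 26 weeks had 176 per kb and stood above Ugt1a2. With that length Ugt1a7c had 274 per kb at 35 weeks and stood above Ugt1a2.

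The comparison of 35 with 26 weeks asked whether the members moved further as the diabetic mice aged, and was not used to choose them. In db/db Unx kidneys Ugt1a2 was called higher at 35 weeks, with a log2 change of 1.35 (SE 0.41, limma adjusted p 0.0359) and a ratio of group means of 2.19. The libraries of the ages overlapped, since 2 of 12 libraries of 26 weeks exceeded the lowest of 35 weeks. Ugt1a1 had 0.73 (SE 0.31, adjusted p 0.127) and Ugt1a10 had 0.29 (SE 0.16, adjusted p 0.266), neither called. In this contrast 1 of the 3 members was called, where 11.3% of all genes were. The Ugt1a2 call was weak. It was lost when 35-week replicate 3 (1.38, adjusted p 0.0676), 5 (1.26, 0.114) or 6 (1.23, 0.113) was left out, and also without 26-week replicate 7 (1.26, 0.0518), 8 (1.31, 0.0519) or 12 (1.27, 0.0527). Over all single omissions the adjusted p lay between 0.0209 and 0.114. Without 35-week replicates 3, 5 and 6 together, the change of Ugt1a2 was 1.00 with an adjusted p of 0.768, that of Ugt1a1 0.64 (0.819) and that of Ugt1a10 0.28 (0.863), and 8 genes were called in place of 1526. The summed macrophage markers in 35-week db/db Unx kidneys had a lowest value of 141, a median of 464 and a highest of 558. These sums were not assigned to single libraries here, and their part in the age difference was not tested.

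In db/m kidneys neither Ugt1a2 nor Ugt1a10 was called between the ages by limma, where 7.40% of all genes were. The log2 changes were 0.72 (SE 0.47, adjusted p 0.414) for Ugt1a2 and 0.29 (SE 0.18, adjusted p 0.384) for Ugt1a10, with unadjusted p-values of 0.140 and 0.121. Ugt1a1 reached 1 in only 4 of 11 db/m libraries and passed the filter through the db/db Unx libraries, so its difference of 0.49 (SE 0.35) in db/m is given without a test. Whether the age difference itself differed between db/db Unx and db/m was tested as an interaction, in which 0.548% of all genes were called. Ugt1a2 had 0.63 (SE 0.63, adjusted p 0.760) and Ugt1a10 -0.00 (SE 0.24, adjusted p 0.999). The estimate for Ugt1a1, which rests in part on the same low db/m values, was 0.24 (SE 0.46). A difference between the age changes was thus not shown for Ugt1a2 or Ugt1a10. The sum of the 3 members changed with age by 0.83 (SE 0.20) in db/db Unx and by 0.47 (SE 0.22) in db/m, and the locus sum by 0.35 (SE 0.08) and 0.10 (SE 0.09). Without the libraries that stood apart, the changes in db/db Unx were 0.60 and 0.25.

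Among the 12 db/db Unx kidneys of 26 weeks the members did not rise and fall as one. The highest library was 8.62 times the lowest for Ugt1a2, 4.04 times for Ugt1a1 and 1.82 times for Ugt1a10. Replicate 4 had the highest Ugt1a2 (554) and the lowest Ugt1a10 (154), and replicate 9 had the lowest Ugt1a2 (64.3) and the highest Ugt1a10 (282). Ugt1a2 and Ugt1a1 went together across the 12 libraries, with Pearson r = 0.79 on log2 values (permutation p 0.00237, adjusted over the 3 pairs 0.00711) and Spearman rho = 0.71 (permutation p 0.0116, adjusted 0.0347). Ugt1a2 and Ugt1a10 went in opposite directions, with r = -0.67 (permutation p 0.0184, adjusted 0.0276) and rho = -0.60 (permutation p 0.0429, adjusted 0.0490). For Ugt1a1 and Ugt1a10, r was -0.61 (permutation p 0.0367, adjusted 0.0367) and rho -0.59 (permutation p 0.0490, adjusted 0.0490). Without the 2 libraries farthest from the median of the first gene, r was 0.74 (permutation, adjusted p 0.0393) and rho 0.62 (permutation, adjusted p 0.105) for Ugt1a2 with Ugt1a1. Pearson r was then -0.65 (permutation, adjusted p 0.0642) for Ugt1a2 with Ugt1a10 and -0.59 (permutation, adjusted p 0.0707) for Ugt1a1 with Ugt1a10, with rho at -0.55 and -0.56 (permutation, adjusted p 0.105 for both). With 10 libraries the coefficients moved little, and only the Pearson value of Ugt1a2 with Ugt1a1 stayed past the threshold. On the first principal component, which held 40.3% of the variance, replicates 7, 8, 9 and 12 lay at 12.3 to 16.4. The other libraries of this group lay at 18.8 to 21.5. Counted from the lowest, replicates 7, 8, 9 and 12 held ranks 4, 1, 3 and 2 for Ugt1a1. Their ranks were 2, 5, 1 and 3 for Ugt1a2 and 6, 7, 12 and 11 for Ugt1a10. Whether this split or the division of reads from the common exons plays a part in these relations was not tested. The labels give no batch within which they could be recomputed.

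**Figure D4:**
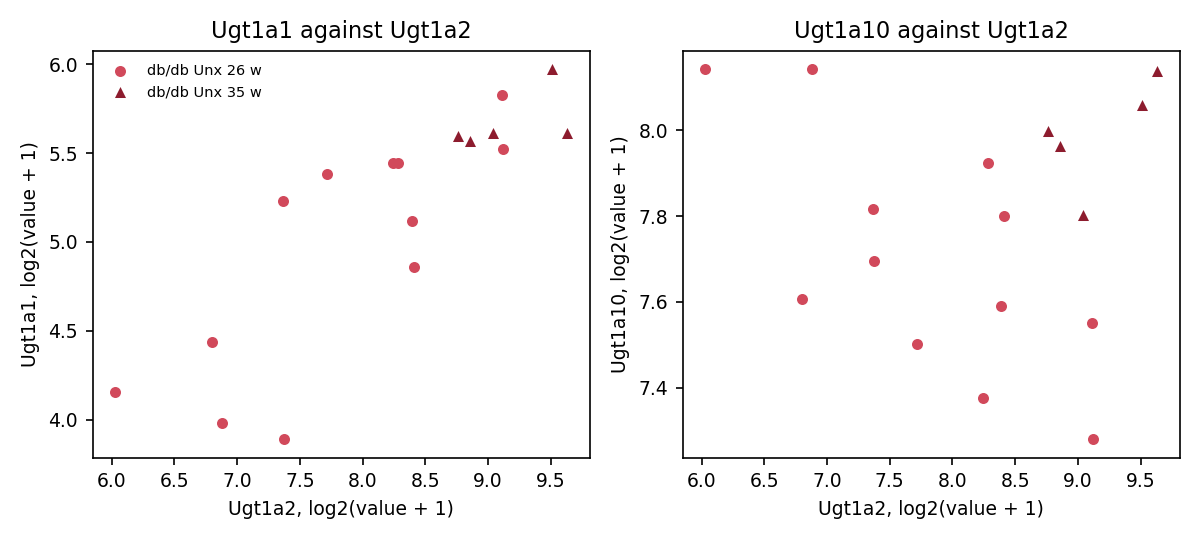
Ugt1a1 (left) and Ugt1a10 (right) on the y axes against Ugt1a2 on the x axis, all as log2(value + 1), in db/db Unx kidneys of 26 weeks (circles, 12 libraries) and 35 weeks (triangles, 5 libraries). Among the circles, Ugt1a1 goes up with Ugt1a2 and Ugt1a10 goes down, with r = 0.79 and -0.67. The triangles lie to the right, at high Ugt1a2.

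Genes with the most similar pattern were ranked by Pearson r on log2(value + 1) among 10086 genes with a mean value of at least 5 outside the locus. Over the 28 libraries the points are split by the groups, and r describes mainly that split. Gc, the vitamin D binding protein, came first for Ugt1a2 (0.98) and Ugt1a10 (0.99), and Cyp2d22, a cytochrome P450, first for Ugt1a1 (0.98). The glutathione transferase Gsta2 was among the 5 nearest genes of all 3 members (0.98 for Ugt1a2 and Ugt1a10, 0.97 for Ugt1a1). Ugt1a10 was also near the microsomal epoxide hydrolase Ephx1 (0.98) and the fatty acid hydroxylase Cyp4a14 (0.98). Within the 12 db/db Unx libraries of 26 weeks, which share genotype, surgery and age, other genes were nearest. Zfp185 (0.93), Osr2 (0.92), Got2 (0.90), Gldc (0.89) and Oat (0.89) stood next to Ugt1a2, where Got2, Gldc and Oat are mitochondrial enzymes of amino acid metabolism. Nampt (0.92), Atp1b1 (0.92), Glud1 (0.91), Osr2 (0.91) and Csnk1g3 (0.88) stood next to Ugt1a1. Hsd17b2 (0.88), Bax (0.87), Usf2 (0.86), Ppp2r3d (0.84) and Ddx27 (0.82) stood next to Ugt1a10. Osr2, a transcription factor of kidney development, was listed for both Ugt1a1 and Ugt1a2, which had r = 0.79 with each other in these libraries. The highest of 10086 coefficients over 12 libraries can be high without any relation. No chance level was computed, so nothing is read from these names.

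The other families of UDP-glycosyltransferases went against the members. Of 8 tested genes of the Ugt2, Ugt3 and Ugt8 families, 1 rose and 6 fell at 26 weeks, with a median log2 change of -1.08 beside 0.02 over all genes. At 35 weeks 1 rose and 7 fell, with a median of -1.28, and 0 rose and 6 fell without the libraries that stood apart. Beside this list and every list below, 34.9% of the 13495 tested genes were called at 26 weeks and 32.3% at 35 weeks. Without the libraries that stood apart, 2407 genes were called at 35 weeks in place of 4357. A lower count in a list without them is thus seen over all genes as well. Ugt2b38 fell from 2923 ± 252 to 669.95 ± 144 at 26 weeks (-2.15, limma adjusted p 2.92e-11), and Ugt3a2 from 2121 ± 112 to 1189 ± 69.1 (-0.84, adjusted p 1.47e-17). Ugt2b5 and Ugt3a1 fell as well, with changes of -1.50 and -0.73. The split of reads between the closely related Ugt2b genes is uncertain. The summed value of these 8 genes at 26 weeks was 5834 to 6765 in controls and 1920 to 2820 in diabetic kidneys. It was not divided by length, so it is not ranked against the Ugt1a sum.

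Supply of the sugar donor and cleavage of glucuronides were covered by 10 genes, of which 1 rose and 5 fell at 26 weeks, and 2 rose and 5 fell at 35 weeks (0 and 5 without the libraries that stood apart). Ugdh, which makes UDP-glucuronate, was not called, with 148 ± 6.35 and 163 ± 11.3 at 26 weeks (0.13, limma adjusted p 0.147). Gusb, the lysosomal enzyme that cleaves glucuronides, fell from 96.7 ± 31.1 to 37.7 ± 3.25 (-1.27, adjusted p 2.81e-09). Pgm1, which makes glucose 1-phosphate, and the nucleotide sugar transporter gene Slc35b1 fell by 0.43 and 0.41. Of 6 genes of the glucuronate and ascorbate branch, 1 rose and 3 fell at 26 weeks, and 0 rose and 3 fell at 35 weeks (0 and 1 without those libraries). Of 7 genes of heme breakdown and bilirubin handling, 2 rose and 0 fell at both ages (1 and 0 at 35 weeks without those libraries). Hmox1, the enzyme that opens the heme ring, rose from 32.2 ± 4.68 to 47.1 ± 14.5 at 26 weeks (0.48, adjusted p 0.0336). Fech, the last enzyme of heme synthesis, had 194 ± 16.3 and 192 ± 16.1 and was not called (adjusted p 0.860).

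Export of conjugates was covered by 11 transporter genes, of which 6 rose and 1 fell at 26 weeks, and 5 rose and 2 fell at 35 weeks (3 and 1 without the libraries that stood apart). Abcc4, an apical exporter of organic anions in the tubule, rose from 17.0 ± 4.00 to 93.8 ± 18.8 at 26 weeks (2.40, limma adjusted p 2.33e-13). Abcc3, which exports glucuronides across the basolateral membrane, rose from 1.53 ± 0.556 to 11.0 ± 3.26 (2.22, adjusted p 5.16e-10), and Abcb1b by 2.10. Abcc2, an apical exporter of bilirubin glucuronide, had 154 ± 14.0 and 148 ± 14.9 and was not called (adjusted p 0.525). Slc22a6, an uptake transporter of organic anions, fell from 1402 ± 119 to 1018 ± 84.8 (-0.46).

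**Figure D5:**
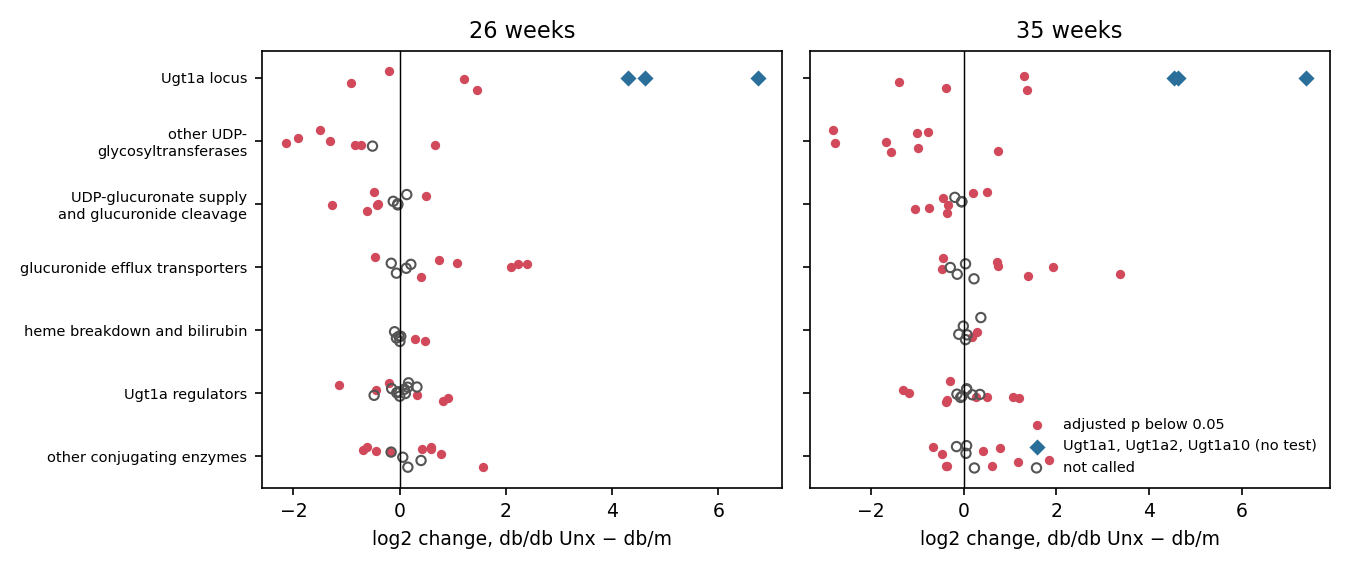
Log2 change of db/db Unx against db/m at 26 weeks (left) and 35 weeks (right) on the x axis for single genes (points), grouped by list on the y axis. Filled red points had an adjusted p below 0.05, open points did not, and blue diamonds are Ugt1a1, Ugt1a2 and Ugt1a10, shown without a test. Ugt1a9 is among the red points, though it passed the filter only through db/db Unx. The diamonds lie between 4.30 and 7.38, to the right of all other points.

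Of 16 tested regulators known to act on Ugt1a genes, 3 rose and 3 fell at 26 weeks, and 4 rose and 5 fell at 35 weeks (3 and 2 without the libraries that stood apart). With 34.9% and 32.3% of all genes called at these ages, nothing is read from these counts. Nr1i2, which encodes the xenobiotic receptor PXR, rose from 1.16 ± 0.331 to 2.86 ± 0.862 at 26 weeks (0.82, limma adjusted p 0.000338), and Cebpa, a liver-enriched factor, from 4.52 ± 0.971 to 9.35 ± 1.60 (0.91). The receptor genes Esr1 (-1.14) and Nr3c1 (-0.44) fell. Ppara, the fatty acid receptor, had 56.1 ± 11.2 and 62.1 ± 9.13, and its partner gene Rxra 109 ± 8.48 and 108 ± 10.5, and neither was called (adjusted p 0.280 and 0.758).

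Targets of these factors gave mixed counts, beside 34.9% of all genes called at 26 weeks and 32.3% at 35 weeks. Of 16 PPARα target genes, 9 rose and 3 fell at 26 weeks and 11 rose and 3 fell at 35 weeks (6 and 3 without the libraries that stood apart). Cyp4a14 rose from 11.2 ± 5.10 to 824 ± 227 at 26 weeks (6.20), while Cyp4a12a fell (-2.04). Of 19 NRF2 target genes, 14 rose and 3 fell, and 12 rose and 3 fell at 35 weeks (12 and 2). Gsta1 (3.63) and Gsta2 (5.59) rose at 26 weeks, and Me1 (-1.29) and Gclm (-0.87) fell. Gsta1 was near 0 in db/m, at 0.306 ± 0.337 at 26 weeks and 0.265 ± 0.160 at 35 weeks. It passed the filter only through the db/db Unx libraries, and it is counted among the genes that rose. Of 4 tested targets of the aryl hydrocarbon receptor, 2 rose and 0 fell at both ages. The detoxifying enzyme Nqo1, also an NRF2 target, rose from 85.3 ± 5.58 to 170 ± 18.3 (0.98), and Cyp1a1, the classic target, had 0.750 ± 0.489 and 0.866 ± 0.394 and was not called. Of 5 tested targets of the receptors CAR and PXR, 1 rose and 1 fell at both ages (0 and 0 at 35 weeks without those libraries), with Abcb1a at 1.09 and Por at -0.50. Of 13 other conjugating enzymes, 5 rose and 4 fell at both ages (5 and 2), among them the membrane-bound glutathione transferase Mgst1 (1.56) and the thiopurine methyltransferase Tpmt (-0.70). Some genes, such as Nqo1, Hmox1 and Abcc3, belong to several of these lists.

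The labelled tissue was checked against markers of the tubule and of other cells. The counts stand beside 34.9% of all genes called at 26 weeks and 32.3% at 35 weeks. Proximal tubule markers were high in every library, with a summed value at 26 weeks of 32580 to 36159 in controls and 25694 to 31740 in diabetic kidneys, and of the 20 genes 4 rose and 12 fell (3 and 11 at 35 weeks). Markers of the thick ascending limb and distal tubule (6 rose, 0 fell, of 8) and of the collecting duct (5 rose, 1 fell, of 8) moved the other way at 26 weeks. At 35 weeks 3 rose and 1 fell in the first list and 3 rose and 2 fell in the second. Without the libraries that stood apart, the counts were 3 and 0 in the first and 2 and 0 in the second. For the proximal tubule they were then 2 and 10. Of 16 hepatocyte markers, 10 were in the table, 8 rose, among them Apob and Trf, and 1, Cyp2e1, fell at 26 weeks, with a median log2 change of 1.02. At 35 weeks 8 rose and 1 fell (6 and 1 without the libraries that stood apart). Their summed value was 2875 to 3238 in controls and 1324 to 1967 in diabetic kidneys, mostly Cyp2e1. Alb, named after its values were seen, rose from 2.25 ± 0.688 to 7.68 ± 1.71. Urothelium markers at 26 weeks summed to at most 2.11 in controls and 17.3 in diabetic kidneys. At 35 weeks they summed to at most 31.5 in controls and 21.7 in diabetic kidneys, and 0 rose and 0 fell. Enterocyte markers were present for 2 of 8 genes and adipocyte markers for 1 of 7. Macrophage markers at 26 weeks summed to 146 to 224 in controls and 103 to 209 in diabetic kidneys, and at 35 weeks to 126 to 210 and 141 to 558. Of 9 such genes, 5 rose and 0 fell at 35 weeks by limma, and 0 rose without the libraries that stood apart. The part of these cell types in the values of the Ugt1a genes was not tested.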

How the data were processed

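Bulk RNA-seq of 28 mouse kidneys was used as 1 deposited table with 1 value per gene and library. The deposited values are a normalized signal. The submitters' processing notes name DRAGEN and the build GRCm38 (mm10). For the version, annotation, scaling and gene filter, nothing is stated in the labels. Of the values under 20 reads, 88.9% to 91.4% per library lay within 0.1 of a whole multiple of 1 step, too few for a count model. Dividing by the step gave 21.8 to 30.8 M estimated reads, and 3 reads correspond to values of 0.0884 to 0.134. Shares and floors cover counting error only.

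GENCODE M21 gave symbols for 14834 of 14845 identifiers. The 13495 genes that reached 1 in 5 or more libraries were fitted as log2(value + 1) with limma 3.58.1 in R 4.3.3 (trend, robust, 1 mean per group, spread shared by the 4 groups, two-sided, Benjamini-Hochberg). On simulated data with these 13495 genes, 94% of changes of 1 on the log2 scale and 99% of changes of 2 were recovered for the 26-week comparison. Correlations used 100000 permutations, two-sided. First exons were aligned with biopython 1.88.

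The members and all lists were chosen with earlier results of these data known. Named genes are the members, the other Ugt1a genes, up to 4 called and 2 uncalled genes per list, and the 5 genes nearest to each member. Alb was named after its values were seen. A few genes that this rule names are not reported here.

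Alternatives were the constant added, the filter, the scaling (equal sums, TMM computed from its published formula, quantiles), the moderation, a replicate block, each library left out and, chosen after seeing the data, 3 libraries left out together.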

Additional observations from a re-analysis of the deposited data

Results flagged for a closer look

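The Ugt1a genes, the sum of the members and the locus sum were checked in 29 groups of 4 to 10 libraries. In 6 of them a library's gap to its nearest neighbour took up an unusually large part of the group's range. For independent normal values, chance gives about 1 in 20. The sums repeat the values of the genes, and Ugt1a5 and Ugt1a9 in db/m are mostly 0, so that rate is only a rough guide. Among the members, Ugt1a1 was 61.8 in db/db Unx replicate 5 of 35 weeks, with the next library at 47.9. Ugt1a10 was 8.02 in db/m replicate 5 of 26 weeks, with the next at 7.43, a small step in a very narrow group. Ugt1a6a was low in db/m replicate 4 of 26 weeks, at 9.07 with the next at 11.2, and in db/db Unx replicate 3 of 35 weeks, at 24.6 with the next at 31.7. Ugt1a5 was 0.128 in db/m replicate 1 of 26 weeks and listed at 0 in the other 4. Ugt1a9 was 0.454 in db/m replicate 5 of 35 weeks, with the next at 0.104, both values of few reads.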

How the results depend on the processing

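In both disease comparisons the members and the sums kept their direction under all alternatives run. With 0.1 added before the logarithm the log2 changes were 5.92 and 5.42 for Ugt1a1 at 26 and 35 weeks and 8.15 for Ugt1a2 at 26 weeks. With 5 added they were 2.64 and 3.12 for Ugt1a1, 5.19 and 6.26 for Ugt1a2, 4.09 and 4.15 for Ugt1a10, and 5.10 for the sum of the members at 26 weeks. Quantile normalization gave 0.76 and 0.98 for the locus sum. The call of Ugt1a2 with age in db/db Unx was lost with 0.1 added (1.35, adjusted p 0.166), with only the compared groups fitted (1.35, 0.0649) and without the 3 libraries that stood apart (1.00, 0.768). Leaving out single libraries gave 1.19 to 1.47. The called genes then numbered 633 to 1748 with age in db/db Unx (633 without 35-week replicate 5, 759 without replicate 6), 578 to 1140 with age in db/m (578 without 26-week replicate 5) and 7 to 249 for the interaction. Without the 3 libraries together, 2407 genes were called at 35 weeks, 8 with age in db/db Unx and 0 for the interaction by limma (1168 at an unadjusted p below 0.05). Plain moderation gave 41 interaction calls.

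The interaction estimates of the members changed sign: with 0.1 added Ugt1a1 had -0.49 and Ugt1a2 -0.30, and Ugt1a10 had 0.064 with 5 added, 0.10 after quantile normalization and -0.13 to 0.11 without single libraries. Ugt1a6b with age in db/m had -0.0075 with 5 added, -0.034 after quantile normalization and -0.19 to 0.19 without single libraries. Ugt1a6a with age in db/db Unx had -0.093 to 0.0076 without single libraries and 0.0082 without the 3 libraries. After quantile normalization Ugt1a7c was called with age in db/m (0.18, adjusted p 0.0276). With the mean transcript length, levels per kb in db/m and db/db Unx of 26 weeks were 333 and 290 for Ugt1a7c and 6.26 and 176 for Ugt1a10. Without the 2 farthest libraries, the correlation of Ugt1a10 was -0.65 with Ugt1a2 and -0.59 with Ugt1a1. Causes were not tested. Same-numbered libraries of different groups did not deviate together over all genes (30 pairs, r -0.13 to 0.08). Pairs with different numbers were not compared, so whether a number marks a shared step was not tested. With the replicate number as a block, 483 genes were called with age in db/db Unx and 29 for the interaction, Ugt1a2 changed by 0.65 with age (adjusted p 0.258), and the interaction estimates were -0.24 for Ugt1a1, -0.040 for Ugt1a2 and 0.076 for Ugt1a10.

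Depth limits the db/m values of Ugt1a1, Ugt1a2, Ugt1a5 and Ugt1a9, which rest on few reads.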
